A study of Arabidopsis thaliana with 29 samples.

Results

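The genes *THI2.1* (AT1G72260) and AT1G66100 encode thionins, and they are 2 of the 22588 genes measured in these *A. thaliana* seedlings. Both were found by symbol or locus in the annotation of the ATH1 array, an Affymetrix array that reads each gene with a set of short probes, and the brightest probe set of each gene was to be used; each had 1 probe set that named it alone. Both lie on chromosome 1. They were selected on their measured log2 fold changes in earlier results of these same arrays, which placed both among the genes with the greatest changes after methyl jasmonate (MeJA), and AT1G66100 also after abscisic acid (ABA). Those changes are therefore given below as values, without tests; tests are given only for the response to the ethylene precursor 1-aminocyclopropane-1-carboxylic acid (ACC), for the response of *THI2.1* to ABA, and for differences between genotypes.

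Thionins are small, cysteine-rich plant peptides held together by disulphide bonds. They are made as longer precursors, are secreted or stored in vacuoles, and can permeabilise the membranes of fungi and bacteria. In *A. thaliana*, *THI2.1* is a classical jasmonate-responsive gene: jasmonate binds a receptor complex that contains COI1, the JAZ repressors are then degraded, and MYC transcription factors switch on defence genes. Jasmonate and ethylene jointly induce a different set of antimicrobial peptides, the plant defensins of the *PDF1.2* type, while ABA acts mainly in water stress and seed dormancy and favours the MYC branch of jasmonate signalling.

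The study asked how cytosolic and nuclear calcium signals shape hormone responses. *PV-NES* and *PV-NLS* plants, in the Col-0 ecotype, carry parvalbumin, a calcium-binding protein that buffers calcium signals, directed to the cytosol by a nuclear export signal or to the nucleus by a nuclear localisation signal; the promoter that drives it is not given in the sources used here. Seeds were stratified for 3 days and kept for 3 days in a 22 °C chamber under a 16 h light and 8 h dark cycle, and the seedlings then spent 5 days on medium without hormone (control) or with 10 µM ABA, 50 µM MeJA or 1 µM ACC. The 29 arrays comprised lines 4, 5 and 8 of *PV-NLS* and lines 1, 7 and 11 of *PV-NES*, each line on 1 array per treatment, together with 2 wild-type (WT) control arrays and 1 WT array for each hormone.

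A line is an independent transformant, so the spread within a transgenic group includes differences between lines. Each lone WT hormone array was assumed to vary like the other groups. Whole seedlings were extracted, so a change in the number of cells that express a gene and a change in RNA per cell cannot be told apart. Values are log2 signals after robust multi-array averaging (RMA), on which 1 unit is a 2-fold difference. The array medians lay between 5.26 and 5.39, and arrays of the same group correlated at r = 0.982 to 0.997 across genes. Signals of different probe sets depend on the probes, so levels are compared only within a gene.

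*THI2.1* was at the low end of the arrays without hormone. Its log2 signal on the control arrays was 3.27 and 3.24 in WT, 2.91, 3.09 and 3.18 in lines 1, 7 and 11 of *PV-NES*, and 3.31, 3.45 and 2.86 in lines 4, 5 and 8 of *PV-NLS*. All 8 values were below the median of their array, between its 20.5th and 28.4th percentile. Signals this low cannot be told from hybridisation background, because the deposited values carry no detection call.

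After MeJA, *THI2.1* was among the brightest genes on every array. The log2 signal was 11.27 in WT, 11.23, 11.61 and 11.42 in lines 1, 7 and 11 of *PV-NES*, and 11.27, 11.29 and 11.58 in lines 4, 5 and 8 of *PV-NLS*. The 7 values fell between the 99.2nd and 99.6th percentile and spanned 0.38, and none came near a control value. The log2 fold changes were 8.01 (SE 0.35) in WT, 8.36 (SE 0.24) in *PV-NES* and 8.17 (SE 0.24) in *PV-NLS*, or 257-, 329- and 289-fold. In each genotype this was the greatest increase of all 22588 genes, of which 2.89%, 2.42% and 2.92% were called higher by the criterion given below; this place belongs to the way the gene was chosen. The starting level may be background, so these folds depend on how RMA treats dim probes.

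AT1G66100 was already bright in untreated seedlings. The control log2 signal was 8.65 and 9.02 in WT, 9.32, 9.32 and 9.56 in lines 1, 7 and 11 of *PV-NES*, and 9.44, 9.31 and 9.09 in lines 4, 5 and 8 of *PV-NLS*. The 8 values stood between the 91.8th and 95.8th percentile of their arrays, and all 6 transgenic values were above both WT values.

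After MeJA, the log2 signal of AT1G66100 was 11.77 in WT, 11.87, 11.69 and 11.77 in the *PV-NES* lines and 11.80, 11.72 and 11.71 in the *PV-NLS* lines. The values lay between the 99.7th and 99.8th percentile and spanned only 0.18, against 0.91 over the control arrays. Whether the probes were near the upper limit of the scanner was not tested. The log2 fold changes were 2.94 (SE 0.48) in WT, 2.38 (SE 0.32) in *PV-NES* and 2.46 (SE 0.32) in *PV-NLS*, equal to 7.68-, 5.20- and 5.51-fold.

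After ABA, AT1G66100 moved in the other direction. Its log2 signal was 4.23 in WT, 5.37, 5.05 and 4.50 in lines 1, 7 and 11 of *PV-NES*, and 4.39, 5.52 and 5.53 in lines 4, 5 and 8 of *PV-NLS*. A gene that was bright on the control arrays was thus near the middle of the ABA arrays, between the 36.5th and 52.8th percentile, and control and ABA values were far apart in every genotype. The log2 changes were -4.60 (SE 0.48), -4.42 (SE 0.32) and -4.14 (SE 0.32) in WT, *PV-NES* and *PV-NLS*, or levels 24.2, 21.5 and 17.6 times lower than in the controls. They were the 5th, 2nd and 6th greatest decreases of all genes, of which 2.09%, 1.1% and 2.16% were called lower, again as a description of a gene chosen for them.

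**Figure D1:**
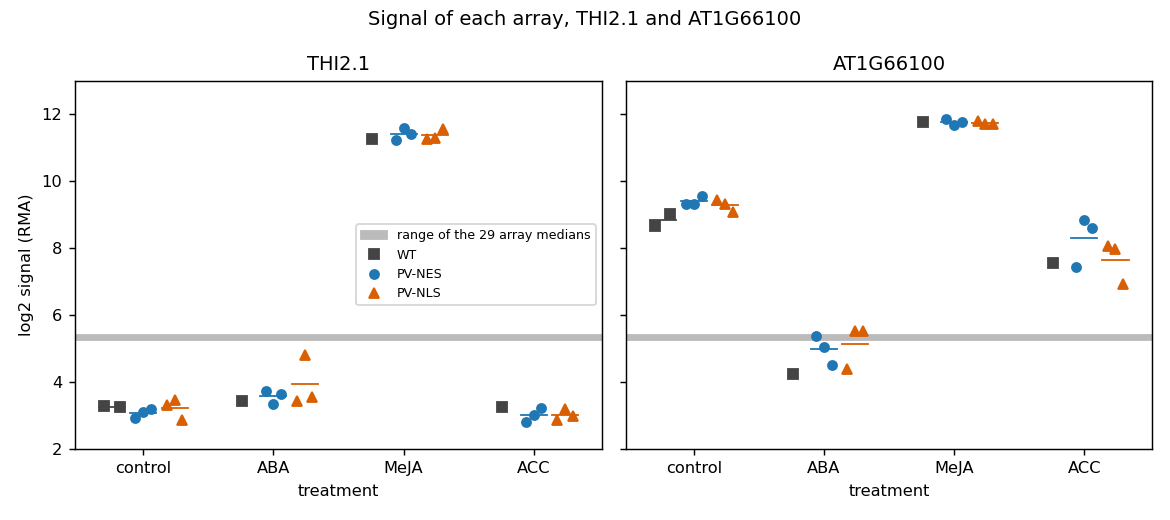
Log2 signal (vertical axis) of *THI2.1* and AT1G66100 on each of the 29 arrays by treatment (horizontal axis); squares are WT, circles *PV-NES* lines and triangles *PV-NLS* lines, short bars are group means, and the grey band spans the array medians. *THI2.1* is below the band except after MeJA, where the 7 arrays read 11.23 to 11.61, while AT1G66100 starts at 8.65 to 9.56 and falls to 4.23 to 5.53 after ABA.

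*THI2.1* showed a small difference after ABA. Its selection had not used the ABA arrays, but it had used the control arrays that this difference subtracts. The log2 signal of *THI2.1* after ABA was 3.42 in WT, 3.73, 3.33 and 3.65 in lines 1, 7 and 11 of *PV-NES*, and 3.43, 4.80 and 3.54 in lines 4, 5 and 8 of *PV-NLS*. All 7 values were still below the median of their array, and line 5 of *PV-NLS* stood above the others. In the fit across all genes (limma), the log2 differences from control were 0.16 (SE 0.35, adjusted p = 0.844) in WT, 0.51 (SE 0.24, adjusted p = 0.187) in *PV-NES* and 0.72 (SE 0.24, adjusted p = 0.0283) in *PV-NLS*.

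A gene was called changed where it differed more than 2-fold with an adjusted p below 0.05, and *THI2.1* met both conditions after ABA in no genotype. The share of all genes called higher after ABA was 2.35% in WT, 1.85% in *PV-NES* and 1.77% in *PV-NLS*. In *PV-NLS* 24.9% of genes had an adjusted p below 0.05 at any fold. Without line 5 the *PV-NLS* difference was 0.40 (adjusted p = 0.122), and without line 4 it was 1.01 (adjusted p = 0.0226) and passed both conditions.

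Each transgenic line was also set against its own control array. The *THI2.1* signal was higher after ABA in 6 of 6 lines, by 0.12 to 1.35 and by 0.62 ± 0.45 on the log2 scale (mean ± SD, n = 6). An exact two-sided sign-flip permutation test gave p = 0.0312, the smallest that 6 lines allow, and 0.0468 after Benjamini-Hochberg adjustment over the 3 such tests run. That test was added after the values were seen, and the control and ABA levels are both in the range where signal and background are hard to separate.

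After ACC, *THI2.1* remained dim. The log2 signal was 3.25 in WT, 2.79, 3.00 and 3.21 in the *PV-NES* lines and 2.87, 3.18 and 2.99 in the *PV-NLS* lines, all within or just under the range of the control arrays. The log2 differences were -0.01 (95% interval -0.74 to 0.72, adjusted p = 0.99) in WT, -0.06 (-0.54 to 0.43, adjusted p = 0.93) in *PV-NES* and -0.19 (-0.68 to 0.30, adjusted p = 0.642) in *PV-NLS*. None was called. The intervals leave room for neither a 2-fold rise nor a 2-fold fall on this compressed low end of the scale. Over the 6 lines the mean difference was -0.12 ± 0.20 (SD, n = 6; lower in 4 and higher in 2; exact sign-flip permutation p = 0.25).

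AT1G66100 was lower after ACC. This response had played no part in its selection, which did use the same control arrays. The log2 signal was 7.55 in WT, 7.45, 8.85 and 8.61 in lines 1, 7 and 11 of *PV-NES*, and 8.06, 7.99 and 6.93 in lines 4, 5 and 8 of *PV-NLS*. Within each genotype every ACC array was below every control array, and all 7 remained above their array medians, between the 74.7th and 93rd percentile. The gene fell in *PV-NLS*, by 1.62 on the log2 scale (SE 0.32, adjusted p = 0.0024), a level 3.08 times lower; of all genes, 0.633% were called lower after ACC in *PV-NLS*.

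In the other genotypes the decrease of AT1G66100 exceeded 2-fold without passing the adjusted threshold. The log2 difference was -1.28 (SE 0.48, adjusted p = 0.0784) in WT, where 3.41% of genes were called lower, and -1.10 (SE 0.32, adjusted p = 0.0607) in *PV-NES*, where 0.363% were. Without *PV-NLS* line 8 the adjusted p in *PV-NES* was 0.0484, and without *PV-NES* line 1 that in WT was 0.0485; both then passed. The *PV-NES* value was -0.71 without its line 1 and -1.41 without its line 7, so line 1 weighs on its size. In the methods' t-test the *PV-NLS* call was lost (adjusted p = 0.133).

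Over the transgenic lines, AT1G66100 was lower after ACC than on the control array of the same line in 6 of 6, with log2 differences from -0.47 (line 7 of *PV-NES*) to -2.16 (line 8 of *PV-NLS*). The mean was -1.36 ± 0.61 (SD, n = 6; exact two-sided sign-flip permutation p = 0.0312, adjusted p = 0.0468 over 3 tests). This test too was added after the values were seen. The ACC responses were smaller than those to ABA in every line, and both use the same control arrays.

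**Figure D2:**
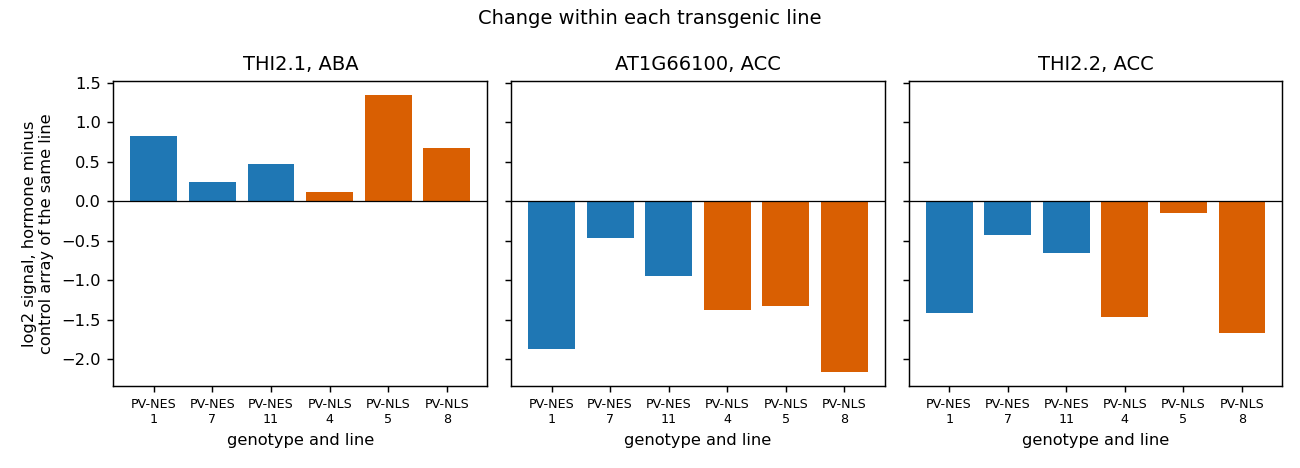
Change in log2 signal of the hormone array from the control array of the same line (vertical axis) for each *PV-NES* (blue) and *PV-NLS* (orange) line (horizontal axis), with 1 bar per line. *THI2.1* is higher after ABA by 0.12 to 1.35, AT1G66100 is lower after ACC (-0.47 to -2.16), and so is *THI2.2*, a further thionin gene (-0.15 to -1.67).

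The 3 genotypes were then compared for each gene within each treatment, which addressed whether buffering calcium in either compartment went with another thionin level. For the 2 genes there were 24 such contrasts, and limma called 0 of them and gave 0 an unadjusted p below 0.05. The count includes the treatments by which the genes were chosen, MeJA for both and ABA for AT1G66100. Of all genes, 2.44% were called for *PV-NES* against WT after ACC and 1.47% for *PV-NLS* against WT after ACC. For *PV-NES* against WT the share was 0.00443% on the control arrays, 0.164% after ABA and 0.0443% after MeJA. It was 0.0398% for *PV-NLS* against WT and 0.093% for *PV-NES* against *PV-NLS* after MeJA, and 0% in each of the other 5 contrasts. The methods' t-test was run for *PV-NES* against *PV-NLS* only and also called 0 of 8, with 0 below an unadjusted p of 0.05. It was not run against WT, although the 2 WT control arrays would have allowed it without hormone.

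For *THI2.1* the genotype differences lay between -0.35 and 0.50 on the log2 scale, and the outermost bounds of their 95% intervals were -0.94 and 1.19. After MeJA, *PV-NES* exceeded WT by 0.16 (-0.53 to 0.84), *PV-NLS* exceeded WT by 0.11 (-0.57 to 0.80) and *PV-NES* exceeded *PV-NLS* by 0.04 (-0.44 to 0.53). The gene was chosen for its level after MeJA on these arrays, so these last values are a description.

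For AT1G66100 the genotype differences lay between -0.17 and 0.91, with interval bounds of -0.97 and 1.85. The gene was chosen for its changes after MeJA and ABA on these arrays, so its differences under those hormones are a description. The greatest of these, *PV-NLS* above WT after ABA (0.91, SE 0.45), rests on a single WT array. After ACC, *PV-NES* exceeded *PV-NLS* by 0.64 (95% interval -0.02 to 1.31, adjusted p = 0.697); this was 1.07 without line 1 of *PV-NES* and 0.28 without line 8 of *PV-NLS*. On the control arrays *PV-NES* exceeded WT by 0.57 (-0.17 to 1.31, adjusted p = 0.622) and *PV-NLS* exceeded WT by 0.45 (-0.29 to 1.19, adjusted p = 0.854). The fit gives each gene 1 residual variance over all groups, and with it the order of the genotypes was not resolved under any treatment. On the control arrays the SD of AT1G66100 was 0.14 in *PV-NES*, 0.18 in *PV-NLS* and 0.26 in WT, below its pooled within-group SD of 0.45. The transgenic control values did not overlap those of WT.

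The sizes of the hormone responses were compared between genotypes as well. Of the 18 differences between responses limma called 0, and 0 had an unadjusted p below 0.05. Of all genes, 1.4% were called for the ACC response of *PV-NLS* against WT, 0.921% for that of *PV-NES* against WT, 0.0266% for the ABA response of *PV-NES* against WT and 0% in the other 6. The differences for MeJA, and for AT1G66100 after ABA, concern responses by which the genes were chosen as present in all genotypes. The MeJA response of *THI2.1* was 0.36 greater in *PV-NES* than in WT (-0.52 to 1.23), and for AT1G66100 the same difference was -0.56 (-1.76 to 0.63). The ACC response of AT1G66100 differed by 0.53 between *PV-NES* and *PV-NLS* (-0.41 to 1.46, adjusted p = 0.858), and by 0.21 to 0.91 with 1 line left out at a time, the extremes being without lines 7 and 1 of *PV-NES*. The intervals for AT1G66100 are wide enough to include differences of over 2-fold. They use the residual variance shared by all groups, so the wider spread of its ABA and ACC arrays also widens its MeJA intervals.

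Pooled over the groups, both genes varied more between arrays of the same group than most genes did. The pooled within-group SD was 0.32 for *THI2.1* and 0.45 for AT1G66100, at the 94.6th and 98.4th percentile of all genes, whose median was 0.17. This spread depended on the treatment. In *PV-NES* and *PV-NLS* the SD of AT1G66100 was 0.09 and 0.05 after MeJA, 0.44 and 0.66 after ABA, and 0.75 and 0.63 after ACC. The greatest SD of *THI2.1* was 0.76, in *PV-NLS* after ABA. The farthest array for *THI2.1* was that of line 5 of *PV-NLS* after ABA, 0.87 above its group mean. The farthest for AT1G66100 were line 1 of *PV-NES* after ACC (-0.86 from its group mean), line 4 of *PV-NLS* after ABA (-0.76) and line 8 of *PV-NLS* after ACC (-0.73).

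Of the 6 thionin genes listed, 4 had a probe set that named them alone. The other 2, AT1G12660 and AT1G12663, share 1 probe set and cannot be told apart. The remaining pair, *THI2.2* (AT5G36910, on chromosome 5) and AT2G15010 (on chromosome 2), had not been chosen for their response.

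*THI2.2*, the other thionin gene that carries a family symbol, fell after MeJA in both transgenic genotypes. Its log2 signal was 6.83 and 7.53 on the WT control arrays, 7.68, 7.78 and 7.99 on those of *PV-NES* and 8.16, 7.16 and 7.41 on those of *PV-NLS*. After MeJA it was 6.20 in WT, 6.07, 5.62 and 6.62 in the *PV-NES* lines and 6.04, 5.93 and 6.43 in *PV-NLS*, below every control array. *THI2.2* fell by 1.71 among the *PV-NES* lines (SE 0.32, adjusted p = 0.000369) and fell by 1.45 among the *PV-NLS* lines (SE 0.32, adjusted p = 0.00142); in WT the difference was -0.98 (SE 0.48, adjusted p = 0.204). Both calls were lost in the methods' t-test (adjusted p = 0.0522 and 0.089). The share of all genes called lower after MeJA was 2.17% in WT, 2.42% in *PV-NES* and 2.66% in *PV-NLS*.

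The ACC response of *THI2.2* had the same direction as that of AT1G66100 in the transgenic lines. Its log2 signal after ACC was 7.24 in WT, 6.27, 7.36 and 7.34 in lines 1, 7 and 11 of *PV-NES*, and 6.70, 7.02 and 5.74 in lines 4, 5 and 8 of *PV-NLS*. It fell by 1.09 in *PV-NLS* (SE 0.32, adjusted p = 0.0279), a call lost without line 4 (-0.91, adjusted p = 0.217) or line 8 (-0.80, adjusted p = 0.202). The differences in *PV-NES* (-0.83, adjusted p = 0.168) and WT (0.06, adjusted p = 0.96) were not called. Line 1 was the lowest of the *PV-NES* ACC arrays and line 8 the lowest of the *PV-NLS* ACC arrays for both genes.

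AT2G15010 responded to ABA in the opposite direction to AT1G66100. On the control, MeJA and ACC arrays it was below every array median, with log2 signals of 2.51 to 3.34. After ABA the signal was 5.87 in WT, 4.71, 5.88 and 4.36 in lines 1, 7 and 11 of *PV-NES*, and 5.14, 5.99 and 6.45 in lines 4, 5 and 8 of *PV-NLS*, so that 4 of 7 arrays passed their median. The control level, between the 13.6th and 25.5th percentile, cannot be told from background, so the sizes that follow depend on how RMA treats dim probes. AT2G15010 rose by 3.06 (SE 0.44, adjusted p = 5.35e-05) in WT, 2.15 (SE 0.29, adjusted p = 1.36e-05) in *PV-NES* and 3.07 (SE 0.29, adjusted p = 5.13e-08) in *PV-NLS*; the *PV-NES* call was lost in the methods' t-test (adjusted p = 0.106). The *PV-NES* response minus the *PV-NLS* response was -0.92 (SE 0.41, unadjusted p = 0.035, adjusted p = 0.429), a difference that was not called.

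**Figure D3:**
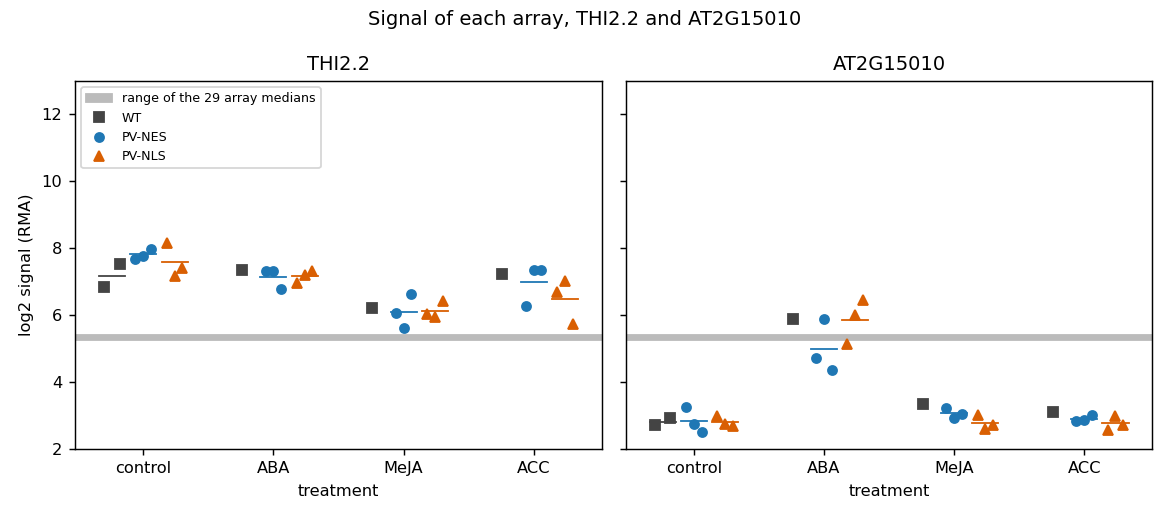
Log2 signal (vertical axis) of *THI2.2* and AT2G15010 on each of the 29 arrays by treatment (horizontal axis); squares are WT, circles *PV-NES* lines and triangles *PV-NLS* lines, short bars are group means, and the grey band spans the array medians. *THI2.2* reads 5.62 to 6.62 after MeJA against 6.83 to 8.16 on the control arrays, and AT2G15010 leaves the range of 2.51 to 3.34 only after ABA.

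**Figure D4:**
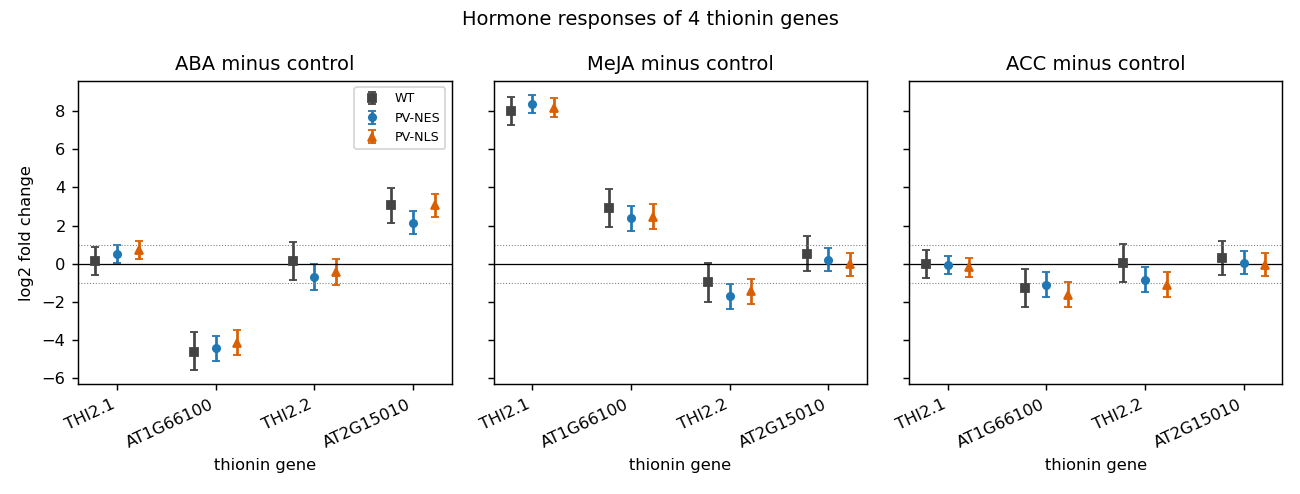
Log2 fold change from control (vertical axis) after ABA, MeJA and ACC for the 4 thionin genes (horizontal axis), with 95% intervals from the fit across all genes; squares are WT, circles *PV-NES* and triangles *PV-NLS*, and dotted lines mark a 2-fold change. The intervals of the 3 genotypes overlap for each gene and hormone, and only *THI2.1* and AT1G66100 are called higher after MeJA.

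Other genes for antimicrobial peptides were read on the same arrays. Of 14 listed, 7 were measured alone. After MeJA 0 were called higher in any genotype, and 1, 2 and 1 were called lower in WT, *PV-NES* and *PV-NLS*. The shares of all genes called lower were 2.17%, 2.42% and 2.66% in the same order. The median log2 difference of the 7 was 0.31, 0.11 and -0.56, against 0.037, 0.03 and 0.044 over all genes. *PDF2.1*, a plant defensin, was lower in every genotype, with log2 differences of -2.32 in WT (adjusted p = 0.000143), -2.10 in the *PV-NES* lines (adjusted p = 8.47e-07) and -1.88 in the *PV-NLS* lines (adjusted p = 3.49e-06). For the defensin gene *LCR68* the log2 difference was -1.02 (adjusted p = 2.72e-05) in *PV-NES*, where it was called. It was -0.95 (adjusted p = 5.24e-05) in *PV-NLS*, which missed the 2-fold condition alone, and -0.60 (adjusted p = 0.0953) in WT.

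*PDF1.2*, the defensin gene used as a marker of joint jasmonate and ethylene signalling, was too variable for the test to resolve its MeJA response. Its log2 differences after MeJA were 2.81 (SE 1.39, adjusted p = 0.206) in WT, 1.82 (SE 0.93, adjusted p = 0.167) in *PV-NES* and -0.56 (SE 0.93, adjusted p = 0.673) in *PV-NLS*. Those of *PDF1.2b* were 2.00 (SE 1.28), 1.78 (SE 0.86) and -1.42 (SE 0.86) in the same order, and none was called (adjusted p = 0.347, 0.141 and 0.208). After ABA, 0 of the 7 list members were called in WT, 1 was called higher in *PV-NES* and 2 were called lower in *PV-NLS*. They are named here after their values were seen. Among all genes, 1.85% were called higher in *PV-NES* and 2.16% lower in *PV-NLS*. *PDF1.4* rose by 2.09 in *PV-NES* (adjusted p = 0.000324), and *PDF1.2* (-2.62, adjusted p = 0.0416) and *PDF1.2b* (-3.23, adjusted p = 0.00766) fell in *PV-NLS*. In WT and *PV-NES*, *PDF1.2* differed by -0.55 (SE 1.39) and -0.25 (SE 0.93), and *PDF1.2b* by -1.19 (SE 1.28) and -0.44 (SE 0.86), none called. *PDF1.2* and *PDF1.2b* are near-identical in sequence, so their probe sets may read each other's transcripts.

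The genes around the jasmonate pathway show what else MeJA did on the same arrays. Beside the counts of jasmonate genes that follow, the share of all genes called higher after MeJA was 2.89% in WT, 2.42% in *PV-NES* and 2.92% in *PV-NLS*. Of the jasmonate catabolism genes, which encode oxygenases and other enzymes that inactivate the hormone, 4 of 10 were measured; 3 rose in WT and 4 in each transgenic genotype. *JRG21*, which encodes a jasmonate-induced oxygenase, rose by 6.71, 7.49 and 6.95 in WT, *PV-NES* and *PV-NLS* (adjusted p = 2.23e-11, 3.60e-16 and 1.96e-15). AT5G05600 and AT3G11180, of the same enzyme family, rose by 2.50 to 3.96. The median of the 4 genes was 3.38, 3.16 and 3.22.

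The genes that make and perceive the hormone were mostly not measured alone. Of 22 jasmonate biosynthesis genes 4 were measured, and 1 was called higher in each genotype. In WT it was *OPCL1*, which encodes an enzyme that activates a jasmonate precursor (1.05, adjusted p = 0.00425). In the transgenic lines it was *JMT*, which encodes the enzyme that methylates jasmonate. *JMT* rose by 1.61 among the *PV-NES* lines (adjusted p = 2.51e-07) and by 1.42 among the *PV-NLS* lines (adjusted p = 1.25e-06). *OPCL1* missed the 2-fold condition alone in *PV-NES* (0.86, adjusted p = 0.00026) and *PV-NLS* (0.71, adjusted p = 0.00139). *JMT* differed by 0.74 (SE 0.26) in WT and was not called. Of 29 perception and signalling genes only the transcription factor genes *MYC3* and *MYC4* were measured, and limma called 0 of them.

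Among 25 jasmonate-induced defence and wound genes, 7 were measured and 4 rose in every genotype, with medians over the 7 of 1.56, 1.15 and 1.11. They were the jacalin-related lectin genes *JAL23* (7.43, 7.48 and 6.81) and *JAL22* (1.56, 1.15 and 1.11), and the anthocyanin genes *UF3GT* and *DFR*. *DFR*, which encodes dihydroflavonol reductase, rose by 1.73, 1.79 and 1.5 after MeJA and fell by 2.11, 2.14 and 2.34 after ACC (adjusted p = 0.00694, 0.000653 and 0.000233), so a rise after MeJA with a decrease after ACC was not seen for AT1G66100 alone. The lists were drawn up with earlier results of these arrays known, and few of their genes had a probe set assigned to a single gene.

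The ABA and ACC treatments were themselves read from other genes. Of 24 ABA-induced genes 6 were measured and 4 rose after ABA in every genotype, where 2.35%, 1.85% and 1.77% of all genes were called higher. This list too was drawn up with earlier results of these arrays known. The medians over the 6 were 3.16, 2.18 and 2.66, and *LEA18*, a late embryogenesis abundant gene, rose by 5.29, 4.67 and 5.01. Of 29 ethylene genes 3 were measured and 1 rose after ACC in each genotype, where 1.99%, 0.319% and 0.483% of all genes were called higher. It was the peroxidase gene AT5G19890 (5.42, 5.43 and 4.63), which was put on the list because of earlier results of these arrays, so this count was set by the choice. AT5G19890 also rose after MeJA (4.67, 4.64 and 4.20, adjusted p = 1.23e-07, 4.20e-11 and 2.36e-10). The receptor-pathway gene *RTE1* and the transcription factor gene *EIN3* were not called after ACC.

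Tissue markers were read on the same arrays. The green shoot marker *RCA*, which encodes Rubisco activase and was the only one of 15 measured alone, had log2 signals of 12.22 to 12.54 on the control arrays, 12.49 to 12.64 after ABA, 11.28 to 12.21 after MeJA and 11.79 to 12.43 after ACC. The log2 summed signal of the 4 of 15 root markers measured was 11.52 to 12.08, 11.64 to 11.96, 12.12 to 12.45 and 11.92 to 12.08 in the same order. The sum is mostly *PYK10*, a root beta-glucosidase gene that also stands on the list of jasmonate-induced defence genes. After MeJA *RCA* was lower, and this sum higher, than on every control array. The root hair expansin gene *EXPA7* read 4.43 to 5.10 on the control arrays and 5.61 to 6.52 after ABA, without overlap; it rose after ABA by 1.22 among the *PV-NES* lines (adjusted p = 0.00074) and by 1.3 among the *PV-NLS* lines (adjusted p = 0.00023), and the WT difference was 0.97 (adjusted p = 0.0729). *EXPA18*, of the same family, rose after ABA by 1.21 in *PV-NES* (adjusted p = 0.0357), against -0.02 in WT and 0.42 in *PV-NLS*. The other root markers measured were not called after ABA. *PYK10* differed by -0.07, -0.33 and -0.27 in WT, *PV-NES* and *PV-NLS*, and AT5G17820 by 0.21, 0.89 and 0.43. After MeJA both expansin genes rose in *PV-NLS*, by 1.02 (*EXPA7*, adjusted p = 0.00158) and by 1.38 (*EXPA18*, adjusted p = 0.00628). Neither was called after MeJA in WT or *PV-NES*. The part of tissue composition in the thionin changes was not tested. No flower or silique marker was measured alone.

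The genes most like each thionin were those of the 13354 named genes whose 12 group means correlated best with its own. The 5 most like *THI2.1* were *CSLA01* (r = 0.996), AT3G51450 (r = 0.996), AT1G54020 (r = 0.995), *scpl30* (r = 0.994) and AT1G66860 (r = 0.993). *CSLA01* belongs to the cellulose synthase-like family and *scpl30* to the serine carboxypeptidase-like family. All 5 were high on the MeJA arrays: the MeJA log2 differences ran from 3.36 for AT3G51450 in *PV-NLS* to 7.85 for AT1G54020 in *PV-NES*. The remaining groups contribute little, so r here mostly records a single step between MeJA and the other treatments. With Spearman's correlation none of the 5 was retained.

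For AT1G66100 the 5 were AT4G37900 (r = 0.978), AT5G53110 (r = 0.965), AT3G23550 (r = 0.963), AT5G47050 (r = 0.955) and AT2G29670 (r = 0.949). Like AT1G66100 they were lowest after ABA and highest after MeJA, but with smaller changes. The decrease after ACC was not shared by all, as AT5G53110 differed by -0.01 in WT and 0.04 in *PV-NES*. AT3G23550, which encodes a transporter of the MATE family, changed most, by 1.03 to 1.44 after MeJA and by -2.35 to -1.49 after ABA. AT4G37900 spanned only 2.71 to 3.42 between its lowest and highest group mean, a range where signal and background are hard to separate.

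The 2 thionins themselves correlated at r = 0.735 over the 12 group means and 0.713 over the 29 arrays. The correlation of *THI2.1* with *THI2.2* was -0.832 and that of AT1G66100 with AT2G15010 was -0.777. These coefficients describe 12 means that share their control arrays and normalisation.

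**Figure D5:**
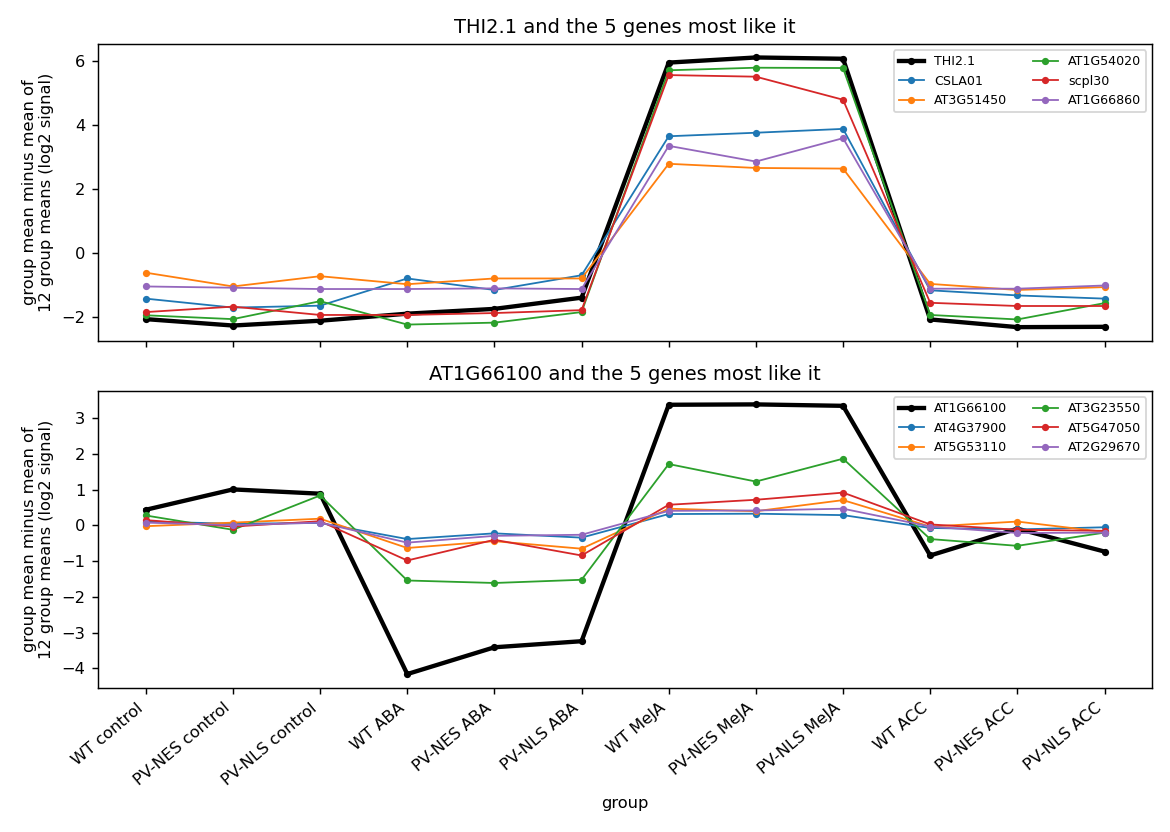
Group mean log2 signal minus the mean of the 12 group means (vertical axis) for *THI2.1* and AT1G66100 (black) and the 5 named genes most like each (coloured), over the 12 groups of genotype and treatment (horizontal axis). The upper genes are set apart by the MeJA groups alone. The lower genes follow AT1G66100 in direction after ABA and MeJA with smaller steps, AT3G23550 having the greatest of the 5.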

How the data were processed

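Total RNA of whole seedlings was hybridised to 29 ATH1 arrays. The authors normalised the scanner files with RMA in R and deposited log2 values, 1.345 to 13.261, for 22810 probe sets; the RMA version is not given in the sources used here. The methods describe no ACC arrays, whose dose and schedule come from the labels. Of the probe sets, 64 array controls were left out, 13513 named 1 gene, 503 several and 8730 none. Names were updated through RefSeq (TAIR10.1). The probe set with the highest mean was kept for the 147 genes with several, which left 22588 features, counted as genes. The 12 group means were fitted together in limma (version 3.58.1, under R version 4.3.3), all groups sharing 1 residual variance per gene (17 residual and 5.94 prior degrees of freedom). P-values were adjusted by Benjamini-Hochberg over all genes in each contrast. A gene was called at a fold above 2 and adjusted p below 0.05. Nothing states that each array of a line came from a separate culture, and the number of arrays limits the precision. The script was tested on simulated data.

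The members, gene lists and tests were chosen with earlier results of these data known. Named genes were the members, the measured thionins, up to 4 called genes and 2 others per list, and the 5 genes most like each member. Alternatives were the line as a replicate block, each line or WT control left out, own-genotype fits, trended or robust variances, a filter on dim genes, median centring, repeated quantile normalisation, all probe sets, and the methods' t-test. The sign-flip tests and likeness over every feature were added after the data were seen. The same line was grown under every treatment, so lines pair the arrays by label; the median correlation of residuals within a line was 0.008 in *PV-NES* and 0.109 in *PV-NLS* (18 pairs each).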

Additional observations from a re-analysis of the deposited data

How the results depend on the processing

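In 861 of 907 alternative values over 57 results, the direction and call were unchanged or the value moved by less than the spread. Not all of these values could move in size. Leaving out a line kept the fold changes within the other genotypes, and the replicate block kept every fold change. There only the standard errors and adjusted p could differ. The line as a replicate block changed no call of either thionin (AT1G66100 after ACC in *PV-NLS* -1.62, adjusted p = 0.00462; 246 genes called there). Signal over background limits *THI2.1*, whose control, ABA and ACC values lie below the array medians, and each WT response rests on 1 hormone array. The causes of the changes below were not tested.

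Centring each array on its median gave MeJA responses of 7.98 for *THI2.1* in WT, 2.55 for AT1G66100 in *PV-NLS* and 0.07 for AT2G15010 in *PV-NLS*; repeating quantile normalisation gave 8.05 for *THI2.1* after MeJA in WT and -0.03 for AT2G15010 after ACC in *PV-NES*. Fitted within its own genotype, WT had 91 genes called after ABA, 129 after MeJA and 0 after ACC (with 1 residual degree of freedom), and the ACC response of AT1G66100 in *PV-NES* (-1.10) passed at adjusted p = 0.0454. The methods' t-test called 432 and 555 genes after ABA, 720 and 727 after MeJA and 0 and 1 after ACC in *PV-NES* and *PV-NLS*; unadjusted, the ACC counts were 186 and 239. With it the ACC response of AT1G66100 in *PV-NLS* (-1.62) had an adjusted p of 0.133, and the calls of *THI2.2* (adjusted p = 0.0522 and 0.089 for the *PV-NES* and *PV-NLS* MeJA responses, 0.273 after ACC in *PV-NLS*) and of AT2G15010 after ABA in *PV-NES* (adjusted p = 0.106) were lost.

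With 1 line or WT control left out at a time, the ACC response of *THI2.1* in WT ran from -0.03 to 0.01 (without WT control 1), its ABA response in *PV-NLS* from 0.40 to 1.01 and its MeJA response in *PV-NLS* from 7.90 to 8.34. For AT1G66100 the ACC response ran from -1.47 to -1.10 in WT and from -1.41 to -0.71 in *PV-NES*, and the MeJA response in *PV-NLS* from 2.38 to 2.52. Of the genotype differences tried, *PV-NLS* minus WT after ABA ran from 0.72 to 1.29 for AT1G66100 and from 0.07 (without line 5) to 0.75 for *THI2.1*; for AT1G66100, *PV-NES* minus WT ran from 0.48 to 1.18 after ACC and from 0.38 to 0.75 on the control arrays, and the difference in MeJA response from -0.75 to -0.38. The *PV-NLS* minus WT difference in the ABA response of *THI2.1* ran from 0.24 to 0.85. None was called. The WT responses of *THI2.2* ran from -0.20 to 0.51 after ABA and from -0.30 to 0.41 after ACC, both negative without WT control 1. Those of AT2G15010 ran from -0.04 to 0.04 after MeJA in *PV-NLS*, from -0.16 to 0.30 after ACC in *PV-NES* and from -0.19 to 0.15 after ACC in *PV-NLS*. Genes called ranged from 868 to 1754 for MeJA in WT, from 693 to 2070 for ACC in WT (the extremes without WT control 1 and 2), from 64 to 166 for ACC in *PV-NES* and from 156 to 278 for ACC in *PV-NLS*.

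Of the 5 genes most like *THI2.1*, 0 were shared with Spearman's correlation, 3 over the 29 arrays and 2 over every tested feature; for AT1G66100 the counts were 1, 0 and 1.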
